A study of Mus musculus with 6 samples.

Results

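Chemokines are small secreted proteins that guide white blood cells along gradients. The genes described here are a cytokine and some of the chemokines and chemokine receptors that immortalised granulocyte-macrophage progenitors (iGMPs) transcribed as they left self-renewal. The list was given by name and held 10 of the 27998 genes in the count table: the CXC ligands Cxcl2 and Cxcl3, the CC ligands Ccl3, Ccl4, Ccl6 and Ccl9, the receptors Cxcr2, Cxcr4 and Ccr1, and the cytokine Il1b. Pf4, a CXC ligand of megakaryocytes and platelets, was left out by the rule. All 10 genes were found in at least 3 cells, and 9 of the 10 averaged at least 20 counts per 1000000 UMIs (CPM) over the libraries; Ccl4 did not reach that average and was kept in every count.

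The study asked what happens to myeloid progenitors when CAF-1, the complex that deposits histones behind the replication fork, is depleted. The cells were mouse Lys-GFP-ER-HoxA9 cells of strain C57BI/6: bone marrow progenitors carrying a GFP reporter in the lysozyme gene, held in self-renewal by HOXA9 fused to an estrogen receptor domain, and grown with stem cell factor. All 6 libraries, controls included, therefore carried the reporter and the HOXA9 fusion. The CAF-1 OFF arm was a clone with an IPTG-inducible shRNA against Chaf1b, a CAF-1 subunit, sampled in β-estradiol at 0 h and after 48 h and 96 h of IPTG. The HOXA9 OFF arm was a clone with a control shRNA, sampled in β-estradiol at 0 h and 48 h and 96 h after β-estradiol was removed, which inactivates HOXA9 and lets the cells mature. Each arm was 1 clone of an engineered line, and clone, shRNA and treatment cannot be told apart between arms.

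Each group was 1 library of droplet-sequenced cells, so no difference between groups could be tested. Every interval below is an exact 95% interval that covers counting error only, and "higher" or "lower" by the 2-fold rule means a log2 ratio of at least 1 in size after 10 CPM was added to both values. Where 3 values are given for an arm, they stand for 0, 48 and 96 h. The libraries held 473 to 1510 cells after the study's limits, with totals of 3524285 to 5589486 UMIs. Median depth went from 8660 UMIs a cell at HOXA9 OFF 0 h to 3535.5 at 48 h and 2043.5 at 96 h, and stayed between 5956 and 6571 in the CAF-1 OFF arm. The limit of 10% mitochondrial UMIs removed 66.2% of the barcodes at HOXA9 OFF 0 h and 0.198% at HOXA9 OFF 96 h. Of the cell barcodes kept, 16 sequences occurred in more than 1 library, and leaving those cells out, or keeping every deposited barcode, gave the same counts of higher and lower members as below. The targeted Chaf1b stood at 35.6, 3.22 and 6.49 CPM at 0, 48 and 96 h in the CAF-1 OFF arm, and at 51.5, 15.3 and 1.13 CPM in the HOXA9 OFF arm, so that it was low in the arm without the shRNA as well.

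Chemokine ligands fall into the CXC and CC classes by the spacing of their first cysteines, and they act on G protein-coupled receptors that turn a gradient into directed movement. CXCL2 and CXCL3 are ligands of CXCR2, the receptor that draws mature neutrophils out of the marrow and into inflamed tissue, whereas CXCR4 holds neutrophils and progenitors in the marrow through its ligand CXCL12. CCR1 binds several CC ligands, among them CCL3, CCL6 and CCL9, and is found on neutrophils, monocytes and their progenitors. IL-1β, the product of Il1b, is not a chemokine but a cytokine that is made as a precursor and induces chemokine genes in its targets.

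Cxcl2 and Cxcl3 lie in the CXC cluster of chromosome 5 at chr5:90903899-90905938 and chr5:90786101-90788093, and at 96 h Cxcl3 was the higher of them in CAF-1 OFF and Cxcl2 in HOXA9 OFF, so the 250 bases upstream of each start are shown. The sequences, and all gene spans given here, are from RefSeq on GRCm38.p6, the build named for the deposited counts, and run 5′ to 3′ on the plus strand from chr5:90903649-90903898 for Cxcl2 and from chr5:90785851-90786100 for Cxcl3. Capitals mark GGAATTTCC, an NF-kB type motif, and, in Cxcl3 alone, TATAAA.
Cxcl2: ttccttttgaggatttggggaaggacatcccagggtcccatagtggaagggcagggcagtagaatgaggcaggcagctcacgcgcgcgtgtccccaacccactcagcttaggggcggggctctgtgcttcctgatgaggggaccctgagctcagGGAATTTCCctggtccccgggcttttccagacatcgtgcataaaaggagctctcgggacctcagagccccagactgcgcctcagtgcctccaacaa
Cxcl3: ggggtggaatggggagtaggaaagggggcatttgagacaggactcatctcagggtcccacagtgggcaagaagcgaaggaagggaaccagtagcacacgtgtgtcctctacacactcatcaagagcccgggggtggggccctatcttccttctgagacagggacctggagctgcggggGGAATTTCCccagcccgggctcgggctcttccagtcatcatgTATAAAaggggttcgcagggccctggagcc
GGAATTTCC began 96 bases before the start of Cxcl2 and 72 bases before the start of Cxcl3. On either strand it occurred in 94 of 32851 upstream windows of this length, or 0.286%. RefSeq promoters were given for 9 of the 10 genes, and none of the other 7 held this exact string. Other forms of an NF-kB type motif were not searched. TATAAA, found in 12.4% of all windows, occurred 30 bases before the starts of Cxcl3 and Cxcr4 and 92 bases before that of Ccl9, and in the window of Il1b, which was taken from a start inside the gene span given below. GAGGAA, a PU.1 type motif found in 23.3% of windows on either strand, occurred in the windows of Ccl3, Cxcr2 and Ccr1, and TTGCNNAA, a C/EBP type motif found in 9.56% of windows, occurred in none of the 9. A match is a description of these letters, and no binding was measured here.

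In the CAF-1 OFF arm, 2 of the 10 genes were at least 2-fold higher at 48 h than at 0 h, Cxcl3 and Ccl3, against 2.76% of the 4789 genes that averaged at least 20 CPM. By 96 h, 4 of 10 were higher, Cxcl2, Cxcl3, Ccl3 and Ccr1, against 5.22% of all genes. These 2 counts depended on the added CPM: with 1 CPM they were 8 and 9, and with 50 CPM 0 and 2. None was lower at 48 h (0.0418% of all genes) or at 96 h (0.856% of all genes). In the HOXA9 OFF arm, 4 of 10 were higher at 48 h, Ccl3, Ccl6, Cxcr4 and Ccr1 (7 with 1 CPM added), against 13% of all genes, and Ccl9 was lower, as were 19.6% of all genes. At 96 h, 8 of 10 were higher, all but Cxcl3 and Ccl9, against 18.1% of all genes. Ccl9 was again the gene that was lower, against 39.8% of all genes. The 10 genes were chosen with earlier results of these data known, so these counts beside the shares are a description and not a test. Il1b and Cxcr2 averaged 22.6 and 30.7 CPM over the libraries, but at most 9.27 and 10.4 CPM in any library other than HOXA9 OFF 96 h. The median log2 ratio over the 10 genes was 0.59 and 0.84 at 48 h and 96 h of CAF-1 OFF, beside 0 and -0.08 over all genes tested, and 0.79 and 3.63 at 48 h and 96 h of HOXA9 OFF, beside -0.23 and -0.56. At 96 h, 8 genes were higher in HOXA9 OFF than in CAF-1 OFF, by 4.46-fold (3.65 to 5.48) for Cxcl2 up to 59.8-fold (44.8 to 81.7) for Ccl6. Cxcl3 and Ccl9 were higher in CAF-1 OFF, the latter by 3.89-fold (3.70 to 4.10). The share of all genes that differed between the arms at 96 h was not counted, so this count has no background beside it. Between the uninduced libraries of the arms none of the 10 differed by the 2-fold rule, and their log2 ratios ran from -0.26 to 0.46. Marker genes were not all alike there. Of 10 mast cell or basophil markers 6 were higher at HOXA9 OFF 0 h, against 0.752% of all genes. These 10 markers summed to 829 CPM at HOXA9 OFF 0 h and 287 CPM at CAF-1 OFF 0 h, and 8 eosinophil markers to 1481 and 228 CPM.

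**Figure D1:**
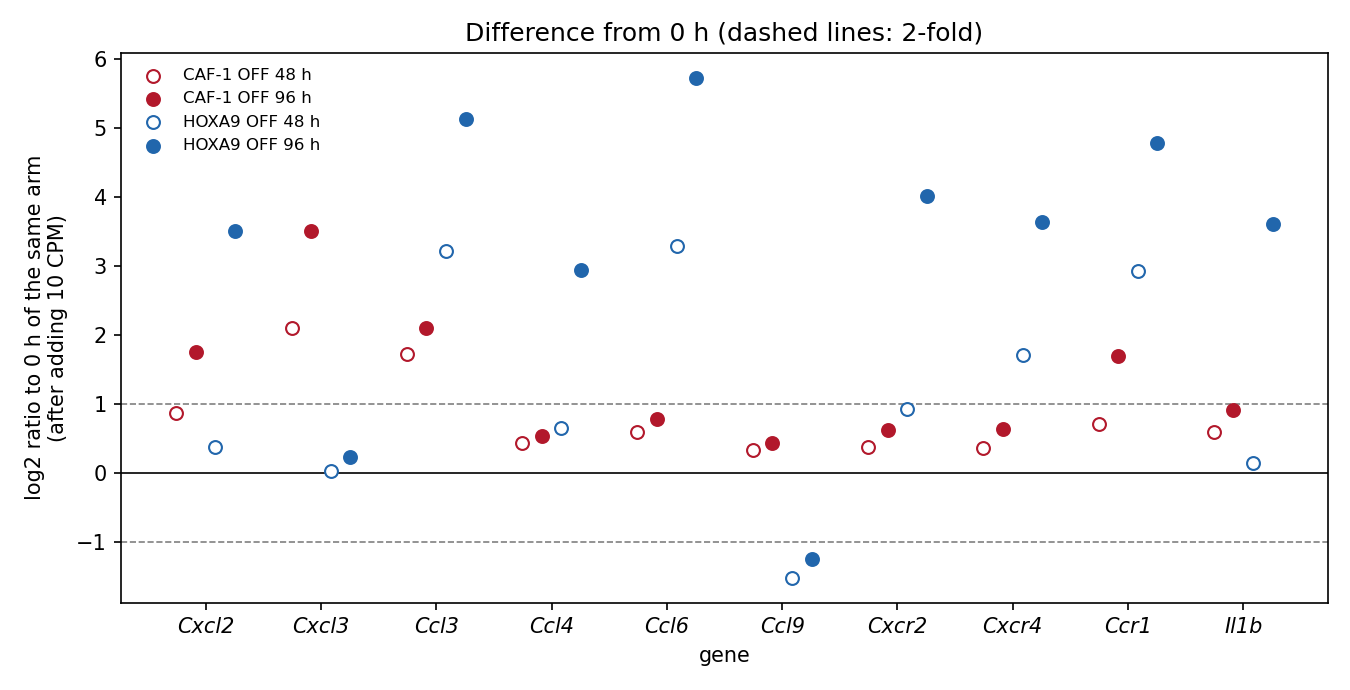
Log2 ratio of each gene to the 0 h library of its own arm, after adding 10 CPM (vertical axis), for the 10 genes (horizontal axis); open points are 48 h, filled points 96 h, red CAF-1 OFF and blue HOXA9 OFF, with 1 library a point and dashed lines at 2-fold. In HOXA9 OFF 96 h, 8 genes lie above the upper line and Ccl9 below the lower line, whereas Cxcl3 lies above it only in the CAF-1 OFF arm.

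Markers of other stages and cell types differed between the same libraries. The summed level of the 12 mature neutrophil markers was 35.1, 10416 and 151733 CPM at 0, 48 and 96 h of HOXA9 OFF. All 12 were at least 2-fold higher at 96 h, against 18.1% of all genes. In the CAF-1 OFF arm the sums were 42.7, 728 and 1213 CPM. There, 3 of 12 were higher at 96 h, against 5.22% of all genes, and Ltf and Ly6g were at 0. The 10 monocyte or macrophage markers summed to 140, 560 and 735 CPM through HOXA9 OFF and to 189, 320 and 281 CPM through CAF-1 OFF. The 6 early granulocyte markers were all higher at 48 h and 96 h of CAF-1 OFF, against 2.76% and 5.22% of all genes. They summed to 442, 2406 and 4525 CPM through CAF-1 OFF, and to 452, 2836 and 857 CPM through HOXA9 OFF. The 8 eosinophil markers had their highest sum, 19339 CPM, at HOXA9 OFF 48 h, and the 10 mast cell or basophil markers had theirs, 4051 CPM, at CAF-1 OFF 96 h. Of the latter 10, 2 were at least 2-fold higher there than at 0 h, against 5.22% of all genes, and Cma1 and Tpsb2 had no UMI. The 8 cycling markers summed to 1402, 496 and 22.4 CPM through HOXA9 OFF and to 1444, 1536 and 1302 CPM through CAF-1 OFF. The part of these other cell states, of cycling or of depth in the chemokine values was not tested. With another scaling the median of all genes at HOXA9 OFF 96 h moved from -0.56 to -0.19 (TMM) or -0.12 (DESeq2 size factors). The share of 2-fold calls that were higher moved with it from 31.2% to 44% or 46.4% at 96 h, and from 39.8% to 54.6% or 51.2% at 48 h.

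**Figure D2:**
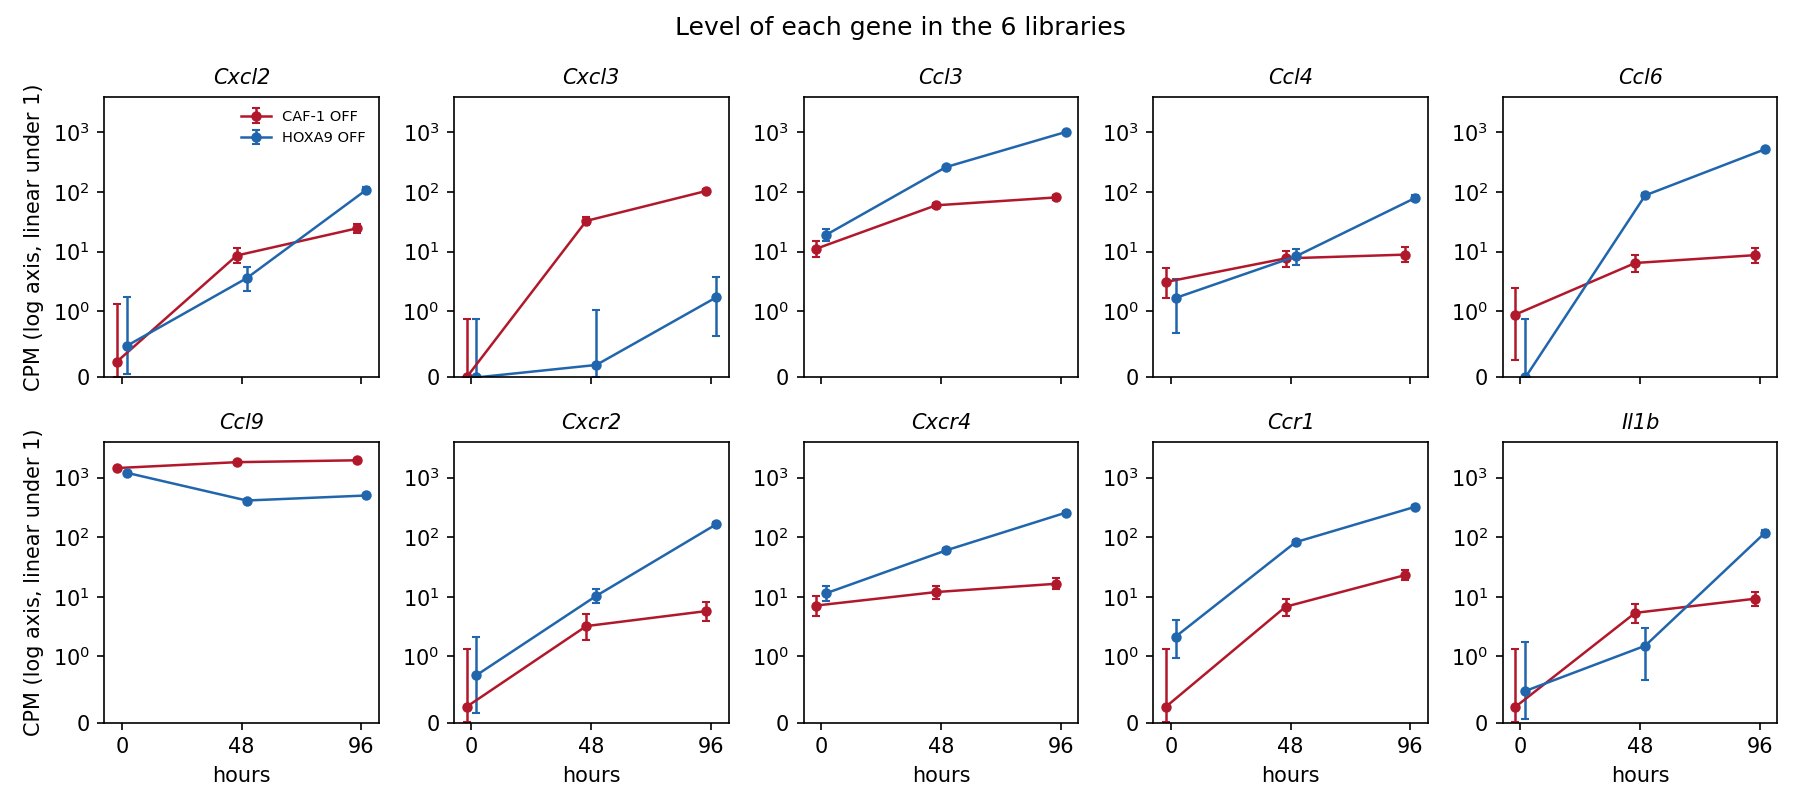
Level of each gene in CPM (vertical axis, logarithmic above 1 and linear below) at 0, 48 and 96 h (horizontal axis) in CAF-1 OFF (red) and HOXA9 OFF (blue); points are single libraries and bars exact 95% Poisson intervals. Cxcl3 is higher in CAF-1 OFF at 48 h and 96 h, Ccl9 is the gene that is lower in HOXA9 OFF after 0 h, and the other genes are highest at HOXA9 OFF 96 h.

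Cxcl3, a ligand of CXCR2, was at least 2-fold higher in the CAF-1 OFF arm and not in the HOXA9 OFF arm; the difference was not tested. It had no UMI at 0 h in either arm, stood at 32.7 CPM (183 UMIs) and 104 CPM (561 UMIs) at 48 h and 96 h of CAF-1 OFF, and at 0.188 CPM (1 UMI) and 1.70 CPM (6 UMIs) at 48 h and 96 h of HOXA9 OFF. Both CAF-1 OFF libraries after induction thus lay above every other library, and the remaining 4 had overlapping counting intervals with their neighbours in order. Against a floor of 3 UMIs in the 0 h library, Cxcl3 was at least 46-fold higher at 48 h and at least 146-fold higher at 96 h, and the log2 ratios were 2.10 and 3.51. At 96 h it was 61.1-fold higher in CAF-1 OFF than in HOXA9 OFF (interval 27.9 to 167). Cells with a Cxcl3 UMI made up 6.58% and 18.1% of the cells at 48 h and 96 h of CAF-1 OFF. After each cell was thinned to 1300 UMIs the shares were 2.87% (1.88 to 4.17) and 7.32% (5.70 to 9.22), whereas 0 of 633 cells held one before induction, with an exact upper limit of 0.581% (3 cells would be 0.474%). The UMIs were unevenly spread: the top 1% of cells at 96 h held 24.6% of them, and 1 cell held 25.

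Cxcl2, the other CXCR2 ligand, was higher in both arms at 96 h. Its level was 0.237, 8.59 and 24.5 CPM at 0, 48 and 96 h of CAF-1 OFF, and 0.477, 3.58 and 109 CPM at the same times of HOXA9 OFF. The 2 uninduced libraries overlapped in their intervals and all other neighbours in order were separate, with HOXA9 OFF 96 h highest. The log2 ratios to 0 h were 0.86 and 1.75 for CAF-1 OFF, and 0.37 and 3.51 for HOXA9 OFF, and since 1 and 2 UMIs stood at 0 h the folds at 96 h were wide, 103 (18.2 to 4104) and 229 (62.9 to 1897). Between 48 h and 96 h, Cxcl2 was 2.85-fold higher in CAF-1 OFF (2.03 to 4.05) and 30.5-fold higher in HOXA9 OFF (19.3 to 51.3). In thinned cells a UMI was found in 2.99% of cells at CAF-1 OFF 96 h and 8.79% at HOXA9 OFF 96 h, and in 8.34% and 12.3% of the unthinned cells. Its UMIs were concentrated too, with 45.5% and 39% of them in the top 1% of cells of those libraries.

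Cxcl2 and Cxcl3 shared more cells of the CAF-1 OFF arm than the product of their shares gives. At 48 h, 9 of 907 thinned cells held both, where the product of their shares gives 0.287 cells, and at 96 h 9 of 902 held both, where the product gives 1.98. At HOXA9 OFF 96 h 1 of 1376 cells held both, with a product of 0.176 cells. The counts are small, and cells of a library share its depth and its mixture of states.

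The genes between and beside these ligands on chromosome 5 had other levels. In chromosomal order the table held Cxcl5, Ppbp, Pf4, Cxcl3, Cxcl15, Cxcl1 and Cxcl2, with 12717 bases from the end of Pf4 to the start of Cxcl3 and 115805 bases from the end of Cxcl3 to the start of Cxcl2. Cxcl5 and Cxcl1 had no UMI in any library, and Cxcl15 had at most 2. Pf4 stood at 22.3, 412 and 2481 CPM through the CAF-1 OFF arm and at 10.0, 2.07 and 5.11 CPM through HOXA9 OFF, and Ppbp, its platelet neighbour, at 0, 3.04 and 10.0 CPM and at 0.955, 3.20 and 3.69 CPM. Pf4 and Cxcl3 were thus both higher in CAF-1 OFF, but a Pf4 UMI was in 95.7% of the cells at 96 h and a Cxcl3 UMI in 18.1%. The 10 megakaryocyte markers, which include Pf4 and Ppbp, summed to 51, 518 and 2721 CPM through CAF-1 OFF and to 39.6, 102 and 33.8 CPM through HOXA9 OFF, with Gp1bb at 0 throughout.

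**Figure D3:**
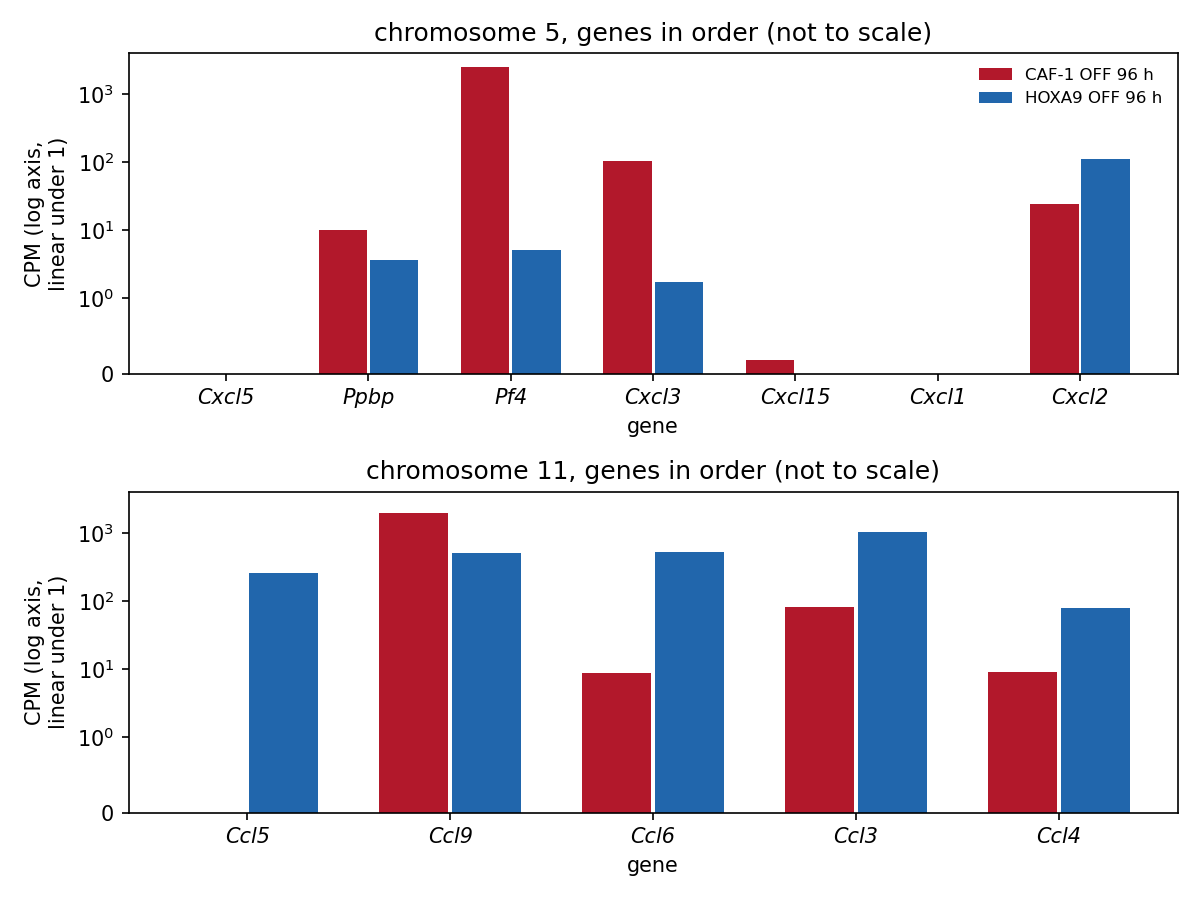
Level in CPM at 96 h (vertical axis, logarithmic above 1 and linear below) of the protein-coding genes of the CXC cluster on chromosome 5 and the CC cluster on chromosome 11, in chromosomal order and not to scale (horizontal axis); red bars are CAF-1 OFF and blue bars HOXA9 OFF, 1 library each. Pf4, Cxcl3 and Ccl9 are higher in CAF-1 OFF, and Cxcl2, Ccl5, Ccl6, Ccl3 and Ccl4 higher in HOXA9 OFF.

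The CC ligands lie together on chromosome 11, where the order was Ccl5, Ccl9, Ccl6, Ccl3 and Ccl4. Ccl3 (MIP-1α; chr11:83647843-83649378), a ligand of CCR1, was the gene that passed the 2-fold rule in all 4 comparisons with 0 h. Its level was 11.2, 59.8 and 81.0 CPM through CAF-1 OFF, and 19.1, 262 and 1016 CPM through HOXA9 OFF, and no neighbours in that order overlapped. At 96 h this was 7.26-fold above 0 h in CAF-1 OFF (5.37 to 10.0) and 53.2-fold in HOXA9 OFF (42.6 to 67.2). The share of thinned cells with a UMI was 1.74%, 6.84% and 9.31% through CAF-1 OFF, and 2.12%, 24.2% and 57.6% through HOXA9 OFF. Without thinning the HOXA9 OFF 96 h share was 68.1% of 1510 cells.

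Ccl4 (MIP-1β; chr11:83648624-83664683), the neighbour and close relative of Ccl3, was far less abundant in UMIs and passed the rule in 1 comparison. It stood at 3.08, 7.69 and 8.90 CPM through the CAF-1 OFF arm and at 1.67, 8.29 and 79.7 CPM through HOXA9 OFF. The libraries at 48 h of both arms and CAF-1 OFF 96 h overlapped, and only HOXA9 OFF 96 h stood clear above them, 47.7-fold over its 0 h library (22.9 to 120). Of its 281 UMIs there, 53.7% were in the top 1% of cells and 37 were in 1 cell, so the level rested on few cells; 5.74% of thinned cells held a UMI. The annotated spans of Ccl3 and Ccl4 overlap by 755 bases, and whether counting used strand was not given in the sources used here, so reads in the overlap are uncertain.

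Ccl6 (chr11:83587886-83593087), a CC ligand of rodent myeloid cells, had the highest log2 ratio of the 10 at HOXA9 OFF 96 h. Its level was 0.949, 6.44 and 8.71 CPM through CAF-1 OFF, and 0, 87.8 and 521 CPM through HOXA9 OFF. At 48 h of HOXA9 OFF it was at least 123-fold above 0 h and at 96 h at least 728-fold, counting 3 UMIs as the floor at 0 h, and the log2 ratios were 3.29 and 5.73. In CAF-1 OFF the log2 ratios were 0.59 and 0.77, under the 2-fold rule, although the 9.18-fold difference at 96 h (3.36 to 35.1) on 4 UMIs at 0 h had an interval above 1. A UMI was in 9.38% and 33.3% of thinned cells at 48 h and 96 h of HOXA9 OFF and in 0.551% and 1.33% at the same times of CAF-1 OFF.

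Ccl9, also a CCR1 ligand, lies 9249 bases from Ccl6 at chr11:83572917-83578636 and differed from 0 h in opposite directions in the arms. It was the gene of the list that was abundant before any treatment, with 1443, 1811 and 1947 CPM through CAF-1 OFF, and 1202, 412 and 500.2 CPM through HOXA9 OFF, and no neighbours in order overlapped. Its log2 ratios were 0.33 and 0.43 for CAF-1 OFF, under 2-fold, and -1.52 and -1.25 for HOXA9 OFF, where it was 2.92-fold lower at 48 h (2.77 to 3.07) and 2.40-fold lower at 96 h (2.27 to 2.54). At 96 h the call did not hold under another scaling, which gave -0.77 (TMM) and -0.69 (DESeq2 size factors), whereas the median of all genes was then -0.19 and -0.12. In thinned cells a Ccl9 UMI was in 83.7%, 89.1% and 89.5% of cells at 0, 48 and 96 h of CAF-1 OFF and in 77.3%, 32.3% and 22.2% in HOXA9 OFF. The order of 48 h and 96 h of HOXA9 OFF depended on the depth: in cells thinned to 2600 UMIs, which left out 1084 of the 1510 cells at 96 h, the shares were 44.2% (41.2 to 47.1) and 40.4% (35.7 to 45.2), with overlapping intervals. Both stayed below the 92.3% of 0 h at that depth. The log2 ratio of Ccl9 between the uninduced libraries was -0.26, for HOXA9 OFF 0 h against CAF-1 OFF 0 h. Whether the 0.33 and 0.43 of CAF-1 OFF exceed the spread between cultures was not tested.

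Cxcr2 (chr1:74153994-74161246), the neutrophil receptor for CXCL2 and CXCL3, stood at 0.237, 3.22 and 5.75 CPM through the CAF-1 OFF arm and at 0.716, 10.4 and 164 CPM through HOXA9 OFF. Only HOXA9 OFF 96 h lay clear of its neighbour in order, 15.8-fold above 48 h (12 to 21.3). In thinned cells, 20.1% held a UMI there, against 1.31% at HOXA9 OFF 48 h and 0.998% at CAF-1 OFF 96 h. Without thinning, 28.9% of cells held a UMI at HOXA9 OFF 96 h and 3.29% at CAF-1 OFF 96 h.

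Cxcr4 (chr1:128588199-128592299), the marrow retention receptor, was present in every library. Its levels were 7.12, 12 and 16.5 CPM through CAF-1 OFF, and 11.5, 59.9 and 258 CPM through HOXA9 OFF. The 4 lowest libraries formed a chain of overlapping neighbours, and both later HOXA9 OFF libraries were separate. The folds over 0 h were 2.32 (1.52 to 3.63) at CAF-1 OFF 96 h, where the log2 ratio of 0.63 did not pass the rule, and 22.5 (16.8 to 30.7) at HOXA9 OFF 96 h. Its ligand Cxcl12 had no UMI in any library.

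Ccr1 (chr9:123962126-123968692), the receptor for CCL3, CCL6 and CCL9, was higher in both arms at 96 h. It stood at 0.237, 6.80 and 23.2 CPM through the CAF-1 OFF arm and at 2.15, 82.3 and 324 CPM through HOXA9 OFF. The uninduced libraries overlapped and all other neighbours were separate. Against 0 h the log2 ratios were 0.71 and 1.70 for CAF-1 OFF, and 2.93 and 4.78 for HOXA9 OFF, where the 96 h level was 151-fold higher (79.2 to 331). Thinned cells with a UMI made up 2.00% at CAF-1 OFF 96 h and 32.9% at HOXA9 OFF 96 h.

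Il1b (chr2:129364569-129371164), the cytokine gene of the list, was at 0.237, 5.37 and 9.27 CPM through the CAF-1 OFF arm and at 0.477, 1.51 and 119 CPM through HOXA9 OFF. At 48 h it was lower in HOXA9 OFF than in CAF-1 OFF, with separate intervals, and at 96 h the order was the reverse. Between 48 h and 96 h of HOXA9 OFF it was 78.7-fold higher (39.6 to 184), on 8 UMIs at 48 h. In CAF-1 OFF the log2 ratio at 96 h was 0.91, under the 2-fold rule. A UMI was in 11.6% of thinned cells at HOXA9 OFF 96 h and 0.145% at 48 h.

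The genes differed in when they passed the 2-fold rule within HOXA9 OFF. Ccl3, Ccl6, Ccr1 and Cxcr4 had passed it by 48 h, whereas Cxcl2, Ccl4, Cxcr2 and Il1b passed it at 96 h alone. The split depended on the added CPM. Without it the folds at 48 h were 14.5 (4.70 to 72.3) for Cxcr2, 7.50 (1.81 to 66.4) for Cxcl2 and 4.96 (2.22 to 13.1) for Ccl4. The fold of Il1b was 3.16 (0.63 to 30.5), beside 5.23 (3.85 to 7.24) for Cxcr4. Thinned cells with UMIs of at least 2 of the 9 genes other than Ccl9 made up 0.212%, 12.6% and 62.2% at 0, 48 and 96 h of HOXA9 OFF and 0.158%, 1.76% and 3.88% for CAF-1 OFF. At HOXA9 OFF 96 h, 289 of 1376 thinned cells held both Ccl3 and Ccl6, with 264 from the product of their shares, and 85 held both Cxcr2 and Cxcr4, with 79.1 from the product. Ccl9 shared more cells than the product gives with Ccl3 (216 against 176), Ccr1 (135 against 101), Ccl6 (123 against 102) and Il1b (56 against 35.4). The same held for Cxcl2 (38 against 26.9) and Ccl4 (28 against 17.6), whereas Ccl9 shared fewer cells with Cxcr4 (63 against 87.4). With Cxcr2 it shared 50 against 61.6, and the interval of that share, 2.71% to 4.76%, contained the product of 4.48%.

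To see which cells held the UMIs, all 5872 cells were clustered without the 10 genes and the further ligand and receptor genes listed below. Pf4 was not among the genes left out. This gave 12 clusters. Most cells of HOXA9 OFF 96 h were in cluster 11 (1125 cells), which was mature neutrophil-like with Ltf, S100a9, Retnlg and Ly6g among its 10 leading genes. The others were mainly in cluster 12 (250 cells, led by Clec4n, Ctss and Cd74, left unnamed) and in cluster 4 (113 cells, eosinophil-like with Prg2, Prg3 and Epx). Cxcr2 stood at 205 CPM (187 to 224) in cluster 11, 103 CPM (81.7 to 128) in cluster 12 and 38.5 CPM (19.2 to 68.9) in cluster 4. A Cxcr2 UMI was in 23.1% of thinned cells of cluster 11, at a median depth of 1875 UMIs, and in 5.15% of those of cluster 4, at 2440 UMIs, where the gene was lowest. Cxcr4 was at 300.3 CPM in cluster 11 and 301 CPM in cluster 4, with overlapping intervals, and at 133 CPM (109 to 161) in cluster 12.

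The ligands and Il1b had another order. Cluster 12 had the highest levels of Ccl9, Ccl4, Il1b and Ccr1: Ccl9 stood there at 1452 CPM, against 166 CPM in cluster 11 and 641 CPM in cluster 4. A Ccl9 UMI was in 61.9% of its thinned cells, at a median depth of 2763 UMIs, and in 11.3% of those of cluster 11, at 1875 UMIs. Cluster 12 held 64.8% of the Ccl9 UMIs of the library and 57.3% of the Ccl4 UMIs. At a clustering resolution of 0.5, a cluster of 75 cells of this library, also led by Clec4n and Cd74, held 38.1% of the Ccl9 UMIs (1977 CPM) and 45.6% of the Ccl4 UMIs (377 CPM), and the 1307 cells grouped with the neutrophil-like cells had 306 and 49.7 CPM. Il1b was at 240.1 CPM (207 to 277) in cluster 12, 92.6 CPM (80.7 to 106) in cluster 11 and 28.0 CPM (12.1 to 55.2) in cluster 4. An Il1b UMI was in 20.2% of thinned cells of cluster 12 and in 4.12% of those of cluster 4. Ccl3 was highest in cluster 4 at 1853 CPM (1698 to 2018), then in cluster 12 at 1420 CPM and in cluster 11 at 790.4 CPM. Ccl6 had overlapping intervals in the 3 clusters, 520 to 574 CPM. Of the 6 Cxcl3 UMIs of the library 5 were in cluster 4. Without cluster 12 or without cluster 11, 8 genes were again 2-fold or more above 0 h, but the log2 ratio of Ccl9 was -2.36 without cluster 12 and -0.03 without cluster 11.

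**Figure D4:**
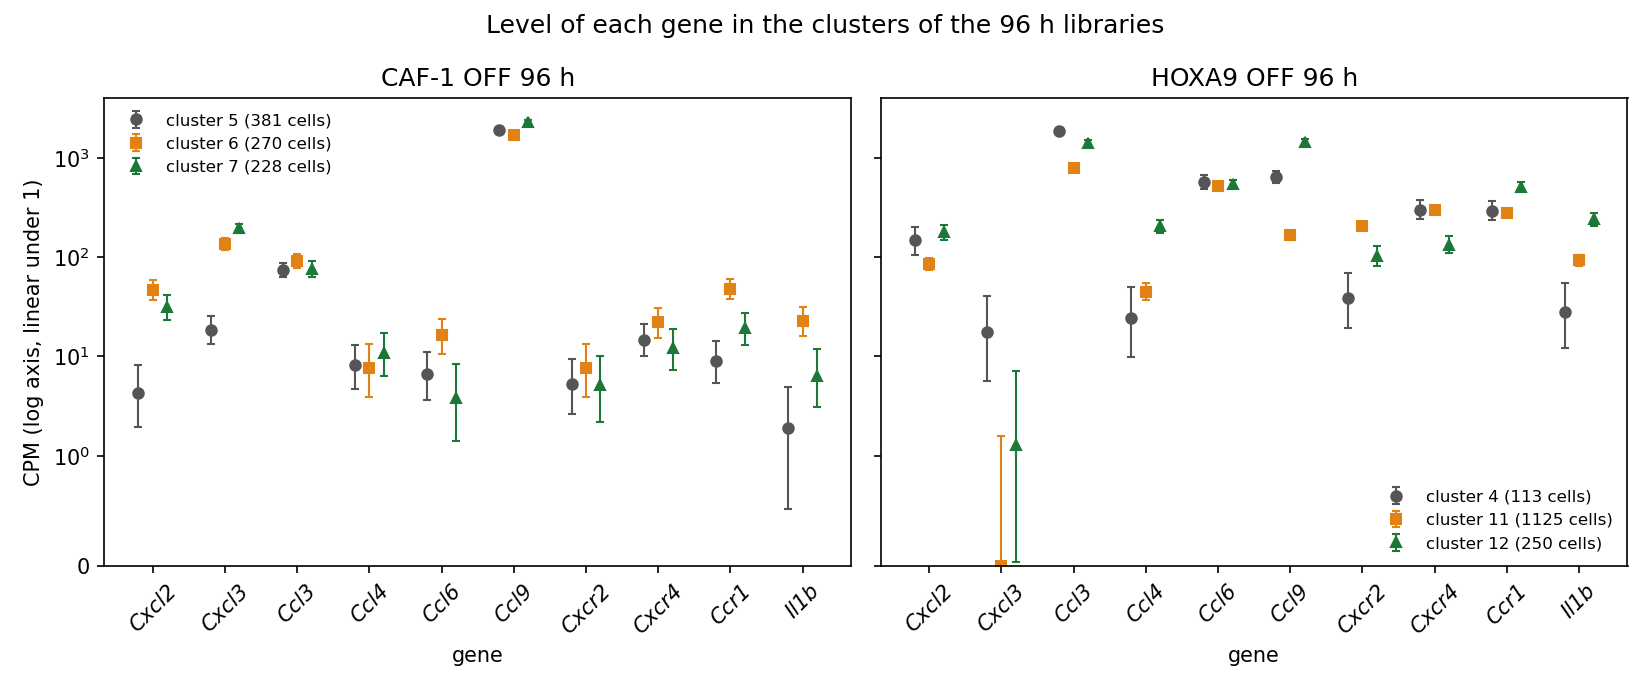
Level in CPM (vertical axis, logarithmic above 1 and linear below) of the 10 genes (horizontal axis) in the main clusters of the 96 h libraries; points are sums over the cells of a cluster within 1 library and bars exact 95% Poisson intervals. In CAF-1 OFF 96 h Cxcl3 and Cxcl2 are higher in clusters 6 and 7 than in cluster 5, and in HOXA9 OFF 96 h Cxcr2 is highest in cluster 11 and Ccl9, Ccl4 and Il1b in cluster 12.

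At CAF-1 OFF 96 h the cells were mainly in clusters 5 (381 cells), 6 (270 cells) and 7 (228 cells), all of them left unnamed. Cxcl3 stood at 194 CPM (173 to 217) in cluster 7, 135 CPM (118 to 155) in cluster 6 and 18.6 CPM (13.2 to 25.4) in cluster 5. A Cxcl3 UMI was in 17.5% of thinned cells of cluster 7 and 1.07% of those of cluster 5, at median depths of 6924 and 5477 UMIs. Cxcl2 was lowest in cluster 5 as well, at 4.29 CPM (1.96 to 8.14), against 46.6 CPM in cluster 6 and 31.3 CPM in cluster 7. Ccr1 and Il1b were highest in cluster 6, at 47.9 and 22.7 CPM, and cluster 6 held 72% of the Il1b UMIs. Cluster 6 had Elane and Ms4a3, both early granulocyte genes, among its leading genes. Over all libraries the 6 early granulocyte markers summed to 7094 CPM in cluster 6, against 2938 CPM in cluster 5 and 2561 CPM in cluster 7. Ccl3 and Ccl4 had overlapping intervals in the 3 clusters.

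The division into clusters 5, 6 and 7 holds at resolution 1; at 0.5 a single cluster held 468 cells at 48 h and 864 at 96 h of CAF-1 OFF, with 63.1 and 108 CPM of Cxcl3. At 48 h and resolution 1, Cxcl3 was at 126 CPM in cluster 6, 19.98 CPM in cluster 7, 17.2 CPM in cluster 5 and 0.633 CPM in cluster 1, which held most uninduced cells. At 48 h of HOXA9 OFF the 422 cells of cluster 10, led by Dpep2, Wfdc17 and Pld4 and left unnamed, had 571 CPM of Ccl3, 225 CPM of Ccl6 and 177 CPM of Ccr1. Cluster 8, with 707 cells, had 102, 32.3 and 46.0 CPM of the same genes. Ccl3 was highest at that time in the 45 cells of cluster 9, at 1056 CPM. Cma1, Ms4a2 and Prss34 were among the leading genes of cluster 9, but it was left unnamed. Over all libraries its mast cell or basophil markers summed to 7752 CPM and its eosinophil markers to 7712 CPM.

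Of 31 further ligand genes listed, 30 were in the table and 15 had any UMI. At HOXA9 OFF 96 h 4 of these 15 were 2-fold or more above 0 h, as were 18.1% of all genes: Ccl2 at 342 CPM, Ccl5 at 253 CPM, Ccl7 at 68.4 CPM and Cxcl10 at 49.4 CPM, all monocyte or T cell attractants and all at or under 1.43 CPM at 0 h. Ccl2 was found in 346 of the 1510 cells, Ccl5 in 71, Ccl7 in 76 and Cxcl10 in 33, and the top 1% of cells held 85.9% of the 893 Ccl5 UMIs. Over all libraries Ccl2 stood at 1129 CPM in cluster 12 and 122 CPM in cluster 11. At CAF-1 OFF 96 h 2 ligands were higher, against 5.22% of all genes, Ccl27a at 35.6 CPM and Ppbp at 10.0 CPM. Cxcl10, Ccl27a, Ppbp, Ccr3 and Ccrl2 are named after their values were seen.

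Of 21 further receptor genes 13 had any UMI. Ccr2, the receptor for CCL2 and CCL7 on monocytes and their progenitors, was lower in both arms, at 501, 309 and 201 CPM through CAF-1 OFF, and 348, 60.6 and 69.0 CPM through HOXA9 OFF. Its log2 ratios at 96 h were -1.28 and -2.18, beside medians of all genes of -0.08 and -0.56. At HOXA9 OFF 96 h 2 of the 13, Ccr3 at 13.6 CPM and Ccrl2 at 46.8 CPM, were higher than at 0 h, against 18.1% of all genes. Of the 48 Ccr3 UMIs there, 75% were in the top 1% of cells. Ccr2 thus stood against Ccr1, Cxcr2 and Cxcr4, which ended above their 0 h levels in both arms, though in CAF-1 OFF Cxcr2 and Cxcr4 did not pass the 2-fold rule. Without added CPM, Cxcr2 at CAF-1 OFF 96 h was 24.2-fold above 0 h (4.04 to 987), on 1 UMI at 0 h.

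Genes that act with chemokines and IL-1 were counted by the same rule, to be read against the 2.76% and 5.22% of all genes that were higher at 48 h and 96 h of CAF-1 OFF and the 13% and 18.1% in HOXA9 OFF. Of 14 IL-1 system genes none was higher at 48 h or 96 h of CAF-1 OFF, 4 were at HOXA9 OFF 48 h and 9 at HOXA9 OFF 96 h, with a median log2 ratio of 1.11. Il1rn, which encodes the receptor antagonist, stood at 0, 18.1 and 106 CPM through HOXA9 OFF, Nlrp3, an inflammasome sensor, at 0.239, 20.9 and 50.5 CPM, and Casp1, which cleaves the IL-1β precursor, at 16.2, 51.8 and 59.9 CPM. At HOXA9 OFF 96 h the log2 ratio of Gsdmd, the pore-forming protein of pyroptosis, was 1.05 and that of the inflammasome adaptor Pycard was -0.14. Of 18 NF-kB and immediate early genes 7 were higher at 48 h and 13 at 96 h of HOXA9 OFF, where the median was 1.69, and 2 of 18 were higher at CAF-1 OFF 96 h, against 5.22% of all genes, with a median of 0.17. Those 2 were the NF-kB inhibitor Nfkbia, at 23.3, 49.4 and 76.6 CPM, and the NF-kB target Tnfaip2, at 3.56, 11.3 and 24.3 CPM. The cytokine gene Il6, named after its values were seen, was lower in HOXA9 OFF, at 28.9, 8.10 and 5.39 CPM. In HOXA9 OFF the AP-1 subunits Fos and Junb reached 415 and 446 CPM at 96 h. The log2 ratios of the other listed genes that reached 50 CPM were 3.78 for Zfp36, 2.40 for Jun, 1.99 for Nfkbiz and 1.62 for Ier3. Fos, Jun and Junb are also induced by cell handling, and the part of handling was not tested.

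Of 14 genes of chemokine receptor signalling 8 were higher at HOXA9 OFF 48 h and 9 at HOXA9 OFF 96 h, with a median of 1.37, and none at CAF-1 OFF 96 h, with a median of 0.01. The G protein subunit Gnai2 stood at 315, 787 and 1158 CPM through HOXA9 OFF, the regulator Rgs2 at 44.2, 346 and 679 CPM, and Arrb2, which encodes β-arrestin 2, at 33.6, 81.5 and 169 CPM. In the CAF-1 OFF arm the same genes were at 127, 192 and 247 CPM, 66.4, 68.0 and 77.5 CPM, and 38.4, 63.9 and 84.5 CPM. Of the others that reached 50 CPM, Prkcd, Adrbk1, Rac2, Rgs19 and Gng2 were higher at HOXA9 OFF 96 h, with log2 ratios of 2.08, 1.65, 1.47, 1.34 and 1.07, and Gnb2, Was, Dock2 and Rgs18 lay under the 2-fold rule, at 0.999, 0.86, 0.76 and 0.54. These counts stood against 13% of all genes higher at 48 h and 18.1% at 96 h. Gnai2 was the gene of these lists that differed by the 2-fold rule between the uninduced libraries, with a log2 ratio of 1.25.

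Among genes that averaged at least 20 CPM, those with the nearest profile over the 6 libraries were found for each member by the root mean square (RMS) difference of centred log2 values; with 6 libraries this is a description. Cxcl3 was nearest to Raet1e, which stood at 0, 26.7 and 98.6 CPM through the CAF-1 OFF arm and at 0, 0.377 and 0 CPM through HOXA9 OFF (RMS difference 0.10). Ccl9 was nearest to Trf, transferrin, at 145, 205 and 204 CPM and at 113, 37.7 and 45.1 CPM (0.07). Cxcr4 was nearest to Samhd1 (0.11), Cxcr2 to Rsad2 (0.17), Cxcl2 to Usp18 (0.21), Il1b to Cd74 (0.16), Ccl4 to Capg (0.17), Ccl6 to Tmcc1 (0.20) and Ccr1 to Grina (0.23). Ccl3 was nearest to another member, its receptor Ccr1 (0.31), and Cxcl2 and Il1b were as close to each other (0.31); no other pair of the 10 genes was closer.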

How the data were processed

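The authors' deposited table held raw UMI counts per gene and cell, made by them with Cell Ranger (3.0.1 per the labels) from 10x Chromium 3′ v2 libraries mapped to mm10; barcodes above the mitochondrial limit were still in it. From it, cells with 200 to 6000 genes and at most 10% mitochondrial UMIs (the study's limits) were kept, 5872 of 7821 barcodes, and counts were summed per library and divided by the library total. Folds carry exact binomial and levels exact Poisson intervals. With 1 library a group, no test was run. The background was 4789 genes that averaged 20 CPM or more. Cells were thinned to 1300 UMIs (2600 as an alternative) without replacement, leaving shallower cells out. Clusters came from Scanpy's neighbour graph (15 neighbours, 2000 variable genes, 30 components) and Leiden at resolution 1. No doublets were removed; Scrublet called 125 cells, tried as an alternative. TMM (edgeR 4.0.16) and DESeq2 1.42.0 size factors were alternative scalings only. The fold rule was tested on simulated data. The genes and lists were chosen with earlier results of these data known. Named were all members, listed genes reaching 50 CPM in a library, and the nearest gene by profile; a few genes outside this are said to be. Counting error limits the precision of genes with few UMIs: 1 UMI was 0.179 to 0.284 CPM. Near-identical paralogues may share reads.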

Additional observations from a re-analysis of the deposited data

Results flagged for a closer look

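Ccl9 differed from 0 h in opposite directions in the arms: its log2 ratio was 0.33 at 48 h and 0.43 at 96 h of CAF-1 OFF, and -1.52 at 48 h and -1.25 at 96 h of HOXA9 OFF. The libraries after induction all lay above 0 h in the former arm and below it in the latter. The uninduced libraries also differed, at 1443 CPM for CAF-1 OFF 0 h and 1202 CPM for HOXA9 OFF 0 h. This was a log2 ratio of -0.26 for HOXA9 OFF 0 h against CAF-1 OFF 0 h, with separate counting intervals. The 0.33 and 0.43 of CAF-1 OFF were close to it in size. Whether they exceed the spread between cultures was not tested. With 1 library a group the difference between the arms was not tested, and over the alternatives the log2 ratio ran from 0.26 to 0.33 (48 h) and 0.32 to 0.51 (96 h) for CAF-1 OFF, whereas for HOXA9 OFF it ran from -1.54 to -1.22 (48 h) and -2.36 to -0.03 (96 h). The value nearest 0 came from leaving out cluster 11 at 96 h. Outliers within groups could not be sought with 1 library a group.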

How the results depend on the processing

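No paired analysis was possible because every group was 1 library, and for the same reason no library could be left out. With a pseudocount of 1 CPM the genes at least 2-fold higher numbered 8 and 9 at 48 h and 96 h of CAF-1 OFF and 7 at 48 h of HOXA9 OFF. With 50 CPM they numbered 0 and 2 in CAF-1 OFF. A 1.5-fold size gave 6 and 8 in CAF-1 OFF, and a 4-fold size gave 1 and 2 there and 0 lower at 48 h and 96 h of HOXA9 OFF. TMM, DESeq2 size factors and leaving out cluster 11 each gave 0 lower at HOXA9 OFF 96 h. Taking all genes found in at least 3 cells as the background, the shares higher were 1.27% and 2.75% for CAF-1 OFF, 6% and 10.3% for HOXA9 OFF, and the shares lower 0.386% at CAF-1 OFF 96 h and 8.4% and 18.3% in HOXA9 OFF. The cause of these moves is the rule itself for pseudocount, size and background, and was not tested for the scalings. All deposited barcodes, at most 5% mitochondrial UMIs, cells without Scrublet doublets and, added after seeing the data, cells without shared barcodes each gave the 8 counts reported, and leaving out clusters 4, 5, 6, 7 or 12 at 96 h gave counts within 1.5-fold. No member's log2 ratio of at least 1 changed sign. At a Leiden resolution of 0.5, 11 of 20 highest cluster levels moved outside their intervals. Thinning to 2600 UMIs moved 33 shares of cells outside their intervals and left 27 inside. Members with few UMIs at 0 h have folds whose size the depth does not fix, and single libraries allow no estimate of the spread between cultures.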
